A study of Macaca mulatta with 6 samples.

Results

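Plasma miRNAs of rhesus monkeys before cerebral ischemia were described from 3 small RNA libraries, the replicates 1, 2 and 3 labelled as before ischemia, out of 6 libraries in the series. The members were chosen by that label alone, and every one of the 2046 entries of the expression table was used. All 3 libraries came from plasma of adult male Macaca mulatta without any genetic change, and by the study's methods the animals had been fasted and anesthetised with ketamine and propofol and bled from the saphenous vein at baseline. The labels give the occlusion of the right middle cerebral artery by a blood clot as the treatment of the study, and it followed this blood draw. The other 3 libraries, labelled as after ischemia, were not analysed here. Plasma is the fluid of blood with its cells spun down, so a level here is that of RNA found in this fluid. RNA freed during blood draw or handling is part of the same sample. The study's methods do not describe the spin, so whether platelets remained is not known. An entry is a small RNA sequence with a miRNA name, 61 entries share 30 sequences, and only sequences of 18 to 26 nt are listed.

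miRNAs are short RNAs cut from the arms of a hairpin precursor, the 5p arm and the 3p arm, of which 1 is usually kept by an Argonaute protein and the other is degraded. The seed, bases 2 to 8 from the 5′ end, is the stretch that pairs with target mRNAs, so miRNAs that share a seed form a family with overlapping targets. In blood, miRNAs circulate bound to Argonaute proteins or inside vesicles and lipoproteins, and they are known to come mostly from red blood cells, platelets, leukocytes and the vessel wall, with small amounts from liver, muscle, gut and brain. Those tissue-enriched miRNAs, such as miR-122 of hepatocytes, are used as markers of injury of their tissue, which makes their level in uninjured animals the baseline of such tests.

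The sequences below are shown because they are abundant members of the largest seed families, not all of which are printed. They were copied from the deposited table, written 5′ to 3′ as DNA letters with T for U, with the seed in capitals. The suffixes _R+2, _R-1 and the like give the number of bases gained or lost at the 3′ end relative to miRBase, and L gives the same for the 5′ end.
let-7g-5p: tGAGGTAGtagtttgtacagtt
miR-21-5p: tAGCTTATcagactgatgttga
miR-148a-3p: tCAGTGCActacagaactttgt
miR-191-5p: cAACGGAAtcccaaaagcagctg
miR-30e-5p_R+2: tGTAAACAtccttgactggaagct
miR-25: cATTGCACttgtctcggtctga
miR-26a-5p: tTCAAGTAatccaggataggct
miR-93-5p_L+1: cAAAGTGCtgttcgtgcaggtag
miR-223_R+2: tGTCAGTTtgtcaaataccccaa
miR-221-3p: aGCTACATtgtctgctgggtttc
miR-126: tCGTACCGtgagtaataatgcg
miR-140-3p_L-1R+2: aCCACAGGgtagaaccacggac
miR-451_R-1: aAACCGTTaccattactgagt

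The let-7 members are shown to let the shared seed and the differing 3′ part be compared, and miR-92a-3p, miR-32-5p and miR-363-3p because they carry the seed of miR-25.
let-7f-5p: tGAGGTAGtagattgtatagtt
let-7i-5p: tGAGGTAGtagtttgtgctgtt
let-7a-5p: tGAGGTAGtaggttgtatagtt
let-7d: aGAGGTAGtaggttgcatagtt
let-7b-5p: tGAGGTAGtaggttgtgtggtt
let-7c-5p: tGAGGTAGtaggttgtatggtt
let-7e-5p: tGAGGTAGgaggttgtatagtt
miR-98: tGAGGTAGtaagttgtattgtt
miR-92a-3p: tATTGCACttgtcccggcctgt
miR-32-5p: tATTGCACattactaagttgc
miR-363-3p_R-1: aATTGCACggtatccatctgt

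The deposited values were read counts that the authors multiplied by 1 scaling factor per library, and the counts were recovered from the steps between low values. The 3 libraries held 10745499, 15275199 and 15548693 counts. Values are given here as counts per 1000000 of the library total (CPM) or as a percentage of that total, with the SD over the 3 libraries (n = 3). For the 20 most abundant entries the largest half-width of the 95% Wilson interval of a share was 0.0179 percentage points, which covers counting error only, since PCR reads without molecular identifiers are not independent molecules. A count of 0 allows up to 3 counts, which is 0.279, 0.196 and 0.193 CPM in the 3 libraries. With a single group there was no test, and a difference is described against the spread over the 3 libraries. The log2 ratio of miR-451, carried by red blood cells, over miR-23a-3p is used to grade hemolysis. It was 0.33, 0.11 and 1.90, so replicate 3 stood apart. No cut-off was applied to these sequencing values, so the ratio compares the 3 libraries and does not grade them. The share of the red blood cell list is therefore also given without replicate 3. Replicate 2 stood apart in the most variable miRNAs, described with the spread.

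The plasma miRNA pool was dominated by few entries. By the shares averaged over the 3 libraries, 13 entries made up 50% of the total, 66 entries made up 90%, and 210 entries made up 99%, while 437 entries averaged 10 CPM or more. The 10 most abundant entries held 44.6%, 47.6% and 43.1% of the total in the 3 libraries, and the 20 most abundant held 59.4%, 63.7% and 63.3%. Of all 2046 entries, 885 were detected in all 3 libraries, 398 in 1 library only and 488 in none. The libraries thus shared their bulk, but not its exact order. Of the 20 most abundant entries of each library 11 were common to all 3 libraries, and 29 different entries filled the 3 lists.

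The most abundant entry was miR-486-5p, made by erythroid cells. It took 6.27%, 5.41% and 15.3% of the libraries of replicates 1, 2 and 3, so its rank rested on replicate 3. miR-21-5p, made by most cell types and raised in many states of injury and inflammation, took 7.78%, 10.8% and 5.53%. It was above miR-486-5p in replicates 1 and 2 and below it in replicate 3. miR-191-5p, an abundant miRNA of blood cells, was steadier, with 5.47%, 5.95% and 4.53%. let-7g-5p, of the let-7 family of differentiation miRNAs, took 5.88%, 5.09% and 4.90%. miR-148a-3p, abundant in liver and B cells, took 5.999%, 6.16% and 3.55%. Together the 5 leading entries held 32.9% ± 1.28 of the total.

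The next entries by mean share were miR-223, miR-221-3p, miR-26a-5p, miR-126 and miR-30d-5p. miR-223, the miRNA of granulocytes and also carried by platelets, took 2.99%, 5.00% and 2.33%, with replicate 2 the highest. miR-221-3p, expressed in endothelium and known to repress the receptor KIT, took 2.30%, 2.501% and 2.09%. miR-126, encoded within EGFL7 and specific to endothelium and platelets, took 2.74%, 2.08% and 1.69%. miR-26a-5p and miR-30d-5p averaged 2.26% ± 0.570 and 2.10% ± 0.438. These entries had SDs under 0.6 percentage points, except for miR-223 with 1.39. From rank 11 to rank 20, in that order, followed miR-25, let-7f-5p, miR-140-3p, miR-451, miR-30e-5p, miR-320a, miR-92a-3p, miR-423-5p, let-7i-5p and let-7a-5p, with means of 1.95% down to 1.47%. Neighbours in this part of the order lay closer together than their SDs, which were 0.232 to 1.21 percentage points. Of the 20 entries 6 were highest in replicate 1, 6 in replicate 2 and 8 in replicate 3.

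**Figure D1:**
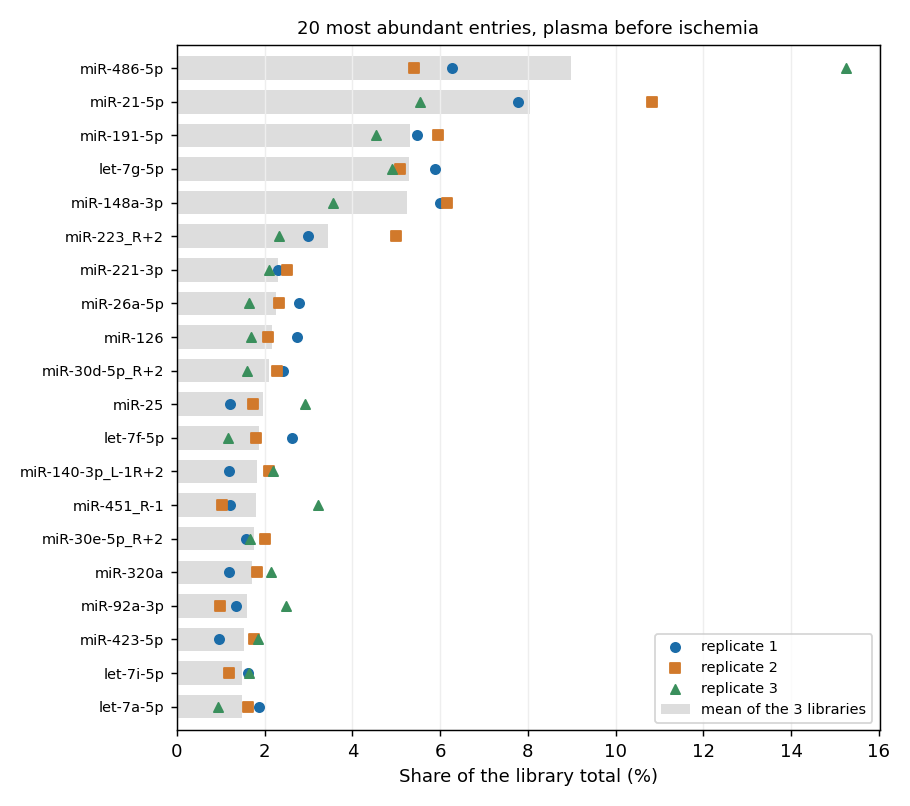
Share of the library total in percent for the 20 most abundant entries, with the 3 libraries before ischemia as points and their mean as a bar. miR-486-5p reached 15.3% in replicate 3 and lay at 6.27% and 5.41% in replicates 1 and 2, and miR-25, miR-451 and miR-92a-3p also had their highest point in replicate 3.

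The entries were grouped by the 7 bases of their seed. Of 1533 different seeds, 338 summed to 10 CPM or more, and the 10 most abundant seed families held 58.7% ± 1.57 of the total. The let-7 family, which represses growth genes such as HMGA2 and the RAS genes and is silenced by LIN28 in embryonic cells, was the largest, with 14.3%, 12.2% and 10.5% of the total. It counted 18 entries, of which 14 were detected in all 3 libraries and 10 averaged 10 CPM or more. Its share was lowest in replicate 3. With the red blood cell miRNAs miR-486, miR-451 and miR-144 taken out of each total, the let-7 share was 15.5%, 13.1% and 13.0%.

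Within the let-7 family, let-7g-5p made up 43.1% ± 2.95 of the family counts. It was followed by let-7f-5p with 14.7% ± 3.67, let-7i-5p with 12.2% ± 2.97 and let-7a-5p with 11.7% ± 2.43. The shares of these last 3 members lay within their SDs. let-7d and let-7b-5p made up 9.33% ± 1.92 and 7.22% ± 0.626. miR-98, let-7e-5p and let-7c-5p averaged under 1%, with 0.960% ± 0.119, 0.412% ± 0.222 and 0.106% ± 0.00943. The members varied by different amounts, and not all in the same order. let-7g-5p had 58792, 50916 and 48971 CPM, and let-7f-5p had 26324, 18006 and 11681 CPM. Both were highest in replicate 1 and lowest in replicate 3, and let-7f-5p differed more. let-7a-5p, with 18697, 16115 and 9388 CPM, was also lowest in replicate 3, whereas let-7i-5p had 16303, 11924 and 16353 CPM and was lowest in replicate 2. let-7a and let-7f are each made from more than 1 gene, and the table does not separate their sources.

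Several families were carried almost entirely by a single entry. miR-486-5p made up 99.8% of its seed family and miR-21-5p 100%, and the families of miR-191-5p, miR-126, miR-140-3p and miR-451 counted a single entry each. miR-148a-3p made up 94.9% ± 1.57 of its family, ahead of miR-148b-3p with 3.82% ± 0.887 and miR-152-3p with 1.26% ± 0.795. miR-221-3p made up 92.0% ± 0.403 of the family it shares with miR-222-3p.

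Other families were divided among paralogs. In the miR-30 family, miR-30d-5p made up 48.1% ± 4.76 and miR-30e-5p 40.9% ± 5.67, which were not apart beyond their spread. miR-30a-5p, miR-30c-5p and miR-30b-5p made up 5.48% ± 2.21, 2.93% ± 0.102 and 2.58% ± 0.262. The miR-25/92 family was shared by miR-25 with 54.2% ± 8.21 and miR-92a-3p with 44.1% ± 8.22, with miR-363-3p, miR-32-5p and miR-92b-3p each under 1%. miR-26a-5p made up 62.9% ± 4.26 of its family against 37.1% ± 4.27 for miR-26b-5p. The miR-17/93 family, proliferation miRNAs of the oncogenic miR-17-92 and miR-106b-25 loci, was led by miR-93-5p with 38.3% ± 4.10 and miR-20a-5p with 36.5% ± 2.43. miR-17-5p and a form of miR-106a-5p had the same sequence in the table and the same value in each library, 2993, 2995 and 3708 CPM, so these reads could not be told apart. miR-16-5p led the miR-15/16 family with 67.3% ± 7.53.

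By family share, the spread between the libraries followed a few families. After miR-451, the miR-486 family had the largest fold between libraries among the 15 leading families, with 6.29%, 5.42% and 15.3%. miR-451 took 1.20%, 1.02% and 3.21%. The miR-25/92 family, abundant in red blood cells too, took 2.60%, 2.78% and 5.46%. All 3 were highest in replicate 3. In contrast the miR-221/222 family took 2.497%, 2.71% and 2.29%, and the miR-30 family took 4.57%, 4.70% and 3.70%.

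**Figure D2:**
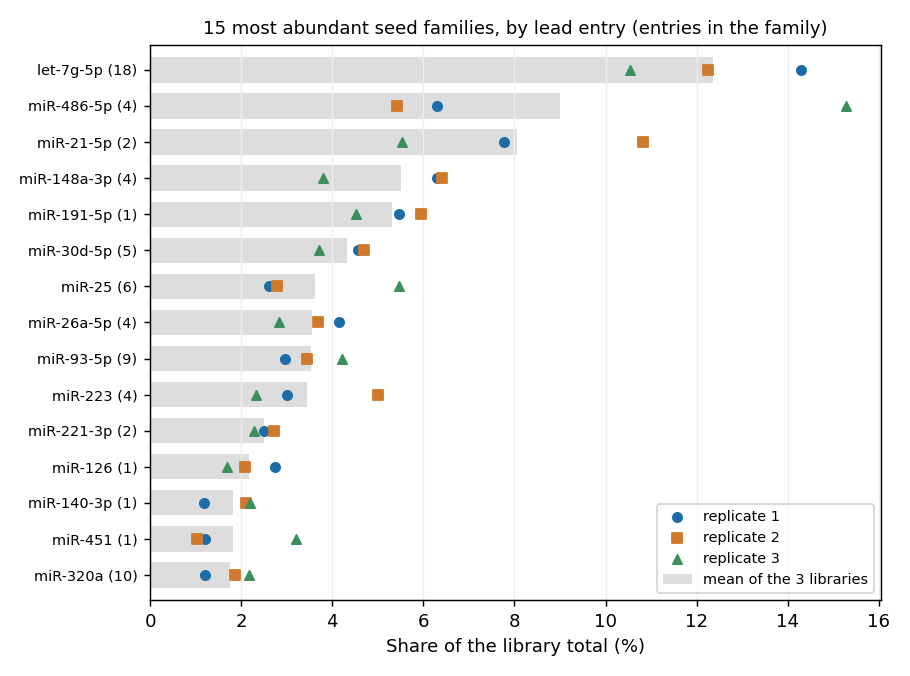
Share of the library total in percent for the 15 most abundant seed families, named by their leading entry with the number of entries in the family, for the 3 libraries (points) and their mean (bars). The let-7 family led with a mean of 12.4%, and the families of miR-486, miR-25 and miR-451 had a high point in replicate 3.

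Next, the arms of the precursors were compared. Entries of 5p arms made up 62.4% ± 1.09 of the total and 3p arms 35.1% ± 1.53, while for 2.39% ± 0.578 no arm could be set, mainly miR-320a. Names without an arm, such as miR-126, miR-223, miR-25 and miR-22, held 16.5% ± 1.68 of the total and were given an arm, where the table allowed it, from the sequence of the partner arm. Of 224 precursors with both arms listed and a sum of 10 CPM or more, 114 had the higher level on the 5p arm and 110 on the 3p arm. The excess of 5p reads thus lay in the abundant miRNAs and not in the number of precursors.

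Most precursors used 1 arm strongly. The median size of the log2 ratio between the arms was 4.49, a 22.4-fold difference. In 145 precursors the arms differed by more than 10-fold, in 65 by more than 100-fold, and in 23 they lay within 2-fold. Among the 12 precursors with the highest sum, let-7g was the most one-sided, with 52893 ± 5200 CPM on the 5p arm and 1.97 ± 0.631 CPM on the 3p arm, a log2 ratio of 14.1 ± 0.402. miR-26a, miR-191, miR-21 and miR-30d had log2 ratios of 12.2 ± 0.687, 10.4 ± 0.396, 8.56 ± 0.552 and 8.50 ± 0.0619. All of these used the 5p arm. miR-148a, miR-221, miR-223 and miR-140 used the 3p arm, with log2 ratios of -7.22 ± 0.321, -7.10 ± 0.460, -5.77 ± 0.133 and -3.76 ± 0.595.

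miR-486, miR-126 and miR-423 kept both arms at a measurable level. With the forms of each arm summed, miR-486 had 62874, 54193 and 152836 CPM on its 5p arm and 1815, 1720 and 2421 CPM on its 3p arm. Only the 5p arm was far higher in replicate 3, so the log2 ratio was 5.11, 4.98 and 5.98. miR-126 had 27397, 20783 and 16858 CPM on its 3p arm and 8799, 6830 and 6549 CPM on its 5p arm, with log2 ratios of -1.64, -1.61 and -1.36. Both arms of miR-126 thus had the same order of the libraries. miR-423 had 9688, 17612 and 18448 CPM on its 5p arm, which was lowest in replicate 1. Its 3p arm had 5720, 5786 and 5878 CPM, the smallest spread of all entries of 100 CPM or more.

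Of the precursors with arms within 2-fold, the 5 most abundant were miR-106b, miR-425, miR-28, miR-361 and miR-181c. miR-106b had 1969, 2129 and 2980 CPM on its 5p arm and 2636, 2046 and 2571 CPM on its 3p arm, with log2 ratios of -0.42, 0.06 and 0.21. miR-425 and miR-361 had more of the 5p arm in all 3 libraries, with log2 ratios of 0.83 ± 0.113 and 0.65 ± 0.128, and miR-28 had more of the 3p arm, with -0.36 ± 0.194. For 3 precursors of 100 CPM or more the higher arm changed between libraries. These were miR-106b, miR-181c, with log2 ratios of -0.26, 0.95 and 0.31, and miR-377, with 0.19, -1.13 and -0.55. The ratio between the arms of a precursor varied about as much as its level: the median SD over the 224 precursors was 0.47 for the log2 ratio and 0.41 for the log2 sum of the arms.

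**Figure D3:**
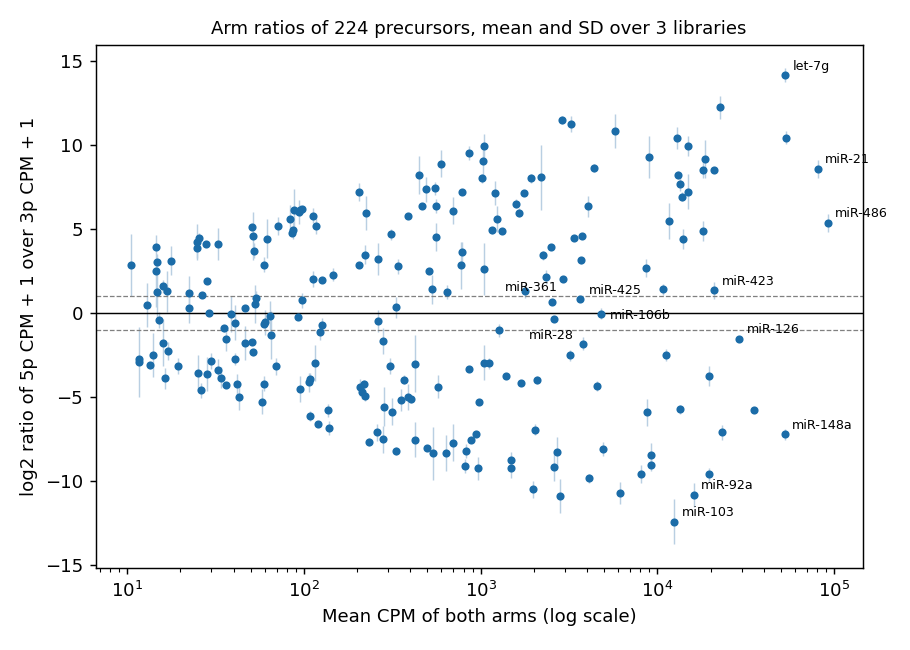
Log2 ratio of 5p over 3p CPM, with 1 CPM added to each arm, against the mean CPM of both arms on a log scale for 224 precursors, with the mean and SD over the 3 libraries. The dashed lines mark a 2-fold difference, within which 23 precursors lay, while let-7g reached 14.1.

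The names also record the form of each sequence relative to miRBase. Sequences as in miRBase held 73.1% ± 0.971 of the counts of known miRNAs, in 364 of 1149 entries. Forms that differed only at the 3′ end held 20.1% ± 0.664, forms changed at both ends 3.95% ± 0.783 and forms changed only at the 5′ end 2.02% ± 0.366. Forms with a substitution counted 305 entries but held only 0.799% ± 0.0690. A 3′ end longer than in miRBase held 16.3% ± 2.09 and a shorter one 8.21% ± 1.58. Among the 20 most abundant entries 15 had the sequence of miRBase. The other 5 were miR-223 with 2 more bases, miR-30d-5p and miR-30e-5p with 2 more bases, miR-451 with 1 base less, and miR-140-3p with 1 base less at the 5′ end and 2 more at the 3′ end. With few exceptions the table held 1 form per rhesus name: of 578 rhesus mature names, those with more than 1 entry numbered 2, one of them let-7a-3p. The shares thus describe the form that was listed and not the full range of isomiRs.

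A 5′ end that differs from miRBase gives a seed other than that of the miRBase sequence. It need not differ from the seed of the family: miR-93-5p_L+1 carried AAAGTGC, as miR-20a-5p_R+1 did. The shares below therefore count differences from miRBase and not changed targets. Entries with a shifted 5′ end held 6.04% ± 1.14 of the known miRNA counts, with 4.76%, 6.39% and 6.97% in replicates 1, 2 and 3. Most of it came from 3 miRNAs. miR-140-3p_L-1R+2, shown above with the seed CCACAGG, had 11815, 21076 and 21940 CPM. miR-93-5p_L+1 had 10015, 14380 and 16625 CPM. miR-142-5p_L+2R-2, of blood cells, had 11528, 14074 and 14432 CPM. All 3 were lowest in replicate 1. miR-29a-3p_L-1, which carries a seed of the collagen-regulating miR-29 family, had 1768, 3038 and 3599 CPM and was lowest in replicate 1 too. The shifted forms are printed here because the shift sets the seed.
miR-142-5p_L+2R-2: cCCATAAAgtagaaagcacta
miR-29a-3p_L-1: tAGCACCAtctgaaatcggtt
miR-106b-3p_L-1R-1: cCGCACTGtgggtacttgct

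Not all entries had a rhesus name. The 580 entries named after rhesus miRNAs held 97.7% ± 0.151 of the total, and 461 of them were detected in all 3 libraries. The 569 entries named after another species held 2.27% ± 0.155, with 288 detected in all 3 libraries. The 897 predicted candidates, named PC, held 0.0729% ± 0.0105, with 136 detected in all 3 libraries and 390 in none. No predicted candidate averaged 100 CPM, and 16 averaged 10 CPM or more. The most abundant of them, PC-3p-1620_2290, had 62.7, 50.7 and 36.1 CPM, and PC-3p-3722_575 had 38.3, 25.6 and 71.7 CPM. PC-5p-4437_437 and PC-3p-4437_437 were listed with the same value in each library, 15.8, 19.3 and 19.2 CPM. PC-5p-4872_379 averaged 17.1 CPM.

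The leading entries of other species carried the human names of conserved miRNAs. hsa-miR-126-5p, the partner arm of rhesus miR-126 under its human name, had 8798, 6830 and 6549 CPM. It was followed by hsa-miR-744-5p with 5142, 4945 and 3095 CPM, hsa-miR-425-3p with 1407, 1430 and 1086 CPM and hsa-miR-16-2-3p with 658, 942 and 2151 CPM. The fifth was pha-miR-1307_L-1, which averaged 921 CPM. Of the 569 entries, 152 shared 16 or more letters in a row with a rhesus entry, and these held 8.77% of the counts of the class. An example, chosen after its values were seen, is mmu-let-7j_1ss8TG with 198, 370 and 279 CPM, which holds all 22 letters of rhesus let-7i-5p and 2 further letters at its 3′ end. Some names had several entries. Of 432 mature names of other species, 68 had more than 1 entry. Among them were bta-miR-378 with 6 entries, hsa-miR-1290 with 2, oan-miR-1386 with 4 and cgr-miR-1260 with 7. The leading entry of bta-miR-378 had 170, 107 and 152 CPM, and bta-miR-378_L-1R+1_1ss7CT had 0 counts in all 3 libraries. Entries of a name need not be different forms. cgr-miR-1260_R+2_1, cgr-miR-1260_R+2_2 and cgr-miR-1260_R+2_3 had the same length and the same values, 6.51, 2.72 and 5.34 CPM.

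Short entries of other species included sequences that end in CCA, the letters that cells add to the 3′ end of tRNA. Of 284 entries with 18 to 19 letters, 35 ended in CCA, which is 12.3%, against 37 of 1762 longer entries, which is 2.10%. The short ones with this end summed to 667, 124 and 279 CPM in replicates 1, 2 and 3. These are shown as examples chosen after their values were seen, with the CCA end in capitals.
oan-miR-1386: ctcctggctggctcgCCA
pal-miR-9995-3p: atctcggtggaacctCCA
bta-miR-2478_L-2: atcccacttctgacaCCA
cgr-miR-1260: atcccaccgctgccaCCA
oan-miR-1386 had 172, 30.4 and 35.1 CPM, pal-miR-9995-3p 90.1, 12.9 and 35.3 CPM, bta-miR-2478_L-2 63.9, 19.8 and 44.0 CPM and cgr-miR-1260 61.1, 5.96 and 36.8 CPM. All 4 were highest in replicate 1 and lowest in replicate 2. A list of 49 entries whose names are known to catch fragments of other RNA summed to 0.0370%, 0.0104% and 0.0273% of the total.

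To describe the cells of origin, entries were collected in lists of miRNAs known to be enriched in a cell type or tissue. The lists were chosen with earlier results of these data known, so counts over a list are descriptions only. In bulk plasma, release by fewer cells of a type and less RNA from each cell cannot be told apart, and many of these miRNAs are expressed at lower levels elsewhere. The red blood cell list, miR-451, miR-486 and miR-144 with 13 entries, held 7.77%, 6.68% and 18.9% of the total, and without replicate 3 its mean was 7.22%. All 13 entries were detected in all 3 libraries, against 461 of 580 rhesus names and 43.3% of all entries, predicted candidates included. The 11 entries of 10 CPM or more were all highest in replicate 3, against 142 of 437 over all entries of that level. miR-451, which is cut by Argonaute 2 instead of Dicer, had 12007, 10193 and 32071 CPM. miR-144, from the same transcript as miR-451, had 830, 560 and 1618 CPM. miR-486-3p had 1648, 1568 and 2176 CPM, a smaller difference than that of the 5p arm. Whether red blood cells that broke open in the sample of replicate 3 account for this was not tested.

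The platelet list, with miR-126, miR-151, miR-28, miR-199a, miR-197 and miR-214 among 21 entries, held 5.98%, 4.25% and 3.58%. The 3p arm of miR-126, of endothelium as well as platelets, made up 47.1% of the list. Of the 12 list entries of 10 CPM or more, 9 were highest in replicate 1, against 187 of 437 over all entries of that level. miR-151-5p had 12442, 6785 and 4381 CPM, and miR-151-3p had 4009, 2324 and 2127 CPM. The order of the libraries was the same for both arms. The leukocyte list of 18 entries held 5.14%, 7.85% and 4.53% and was highest in replicate 2, following miR-223 with 29927, 50008 and 23298 CPM. miR-155, an miRNA of activated lymphocytes and macrophages, had 6808, 9538 and 3265 CPM. miR-146a-5p, which restrains NF-kB signalling, had 1230, 2330 and 2055 CPM. Of the 13 entries of 10 CPM or more, 7 were highest in replicate 2, 5 in replicate 3 and 1 in replicate 1, against 108, 142 and 187 of 437 over all entries. miR-150-5p, of mature lymphocytes, had 571, 264 and 963 CPM and miR-342-3p had 159, 62.8 and 86.8 CPM. Both were lowest in replicate 2, are not among the 4 leading entries of the list and were chosen after their values were seen. The vessel wall list held 2.60%, 2.76% and 2.42%, of which miR-221-3p made up 88.8%. miR-143-3p, of smooth muscle, had 756, 211 and 1113 CPM, a far wider spread than miR-222-3p with 1951, 2085 and 1930 CPM.

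With the red blood cell list taken out of the totals, the platelet share was 6.48%, 4.56% and 4.41%, the leukocyte share 5.57%, 8.41% and 5.59%, and the vessel wall share 2.81%, 2.95% and 2.98%. The leukocyte list was then still highest in replicate 2, and the platelet list in replicate 1.

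Tissue-enriched miRNAs were scarce by comparison. The liver list, miR-122 and miR-885, held 1.36%, 0.147% and 0.223%. Nearly all of it, 99.7%, was miR-122a-5p, the hepatocyte miRNA that supports cholesterol metabolism, with 13575, 1460 and 2210 CPM. Replicate 1 was 9.30-fold above replicate 2, and without replicate 1 the mean of the list was 0.185%. miR-885-5p, also of liver, had 22.3, 4.26 and 11.9 CPM and the same order of the libraries. miR-192-5p, abundant in liver and intestine, had 1672, 661 and 787 CPM and was highest in replicate 1 too. The 9.30-fold difference of miR-122a-5p between its highest and lowest library was larger than that of any of the 20 leading entries. The largest of those was 3.15-fold for miR-451.

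The intestine and lining epithelium list of 20 entries held 0.227%, 0.118% and 0.111%. Behind miR-192-5p followed miR-200c-3p, which keeps epithelial cells from changing to a mesenchymal state, with 146, 104 and 53.1 CPM, miR-194-5p with 114, 116 and 61.1 CPM and miR-215-5p with 110, 117 and 51.6 CPM. miR-194 has a gene beside that of miR-215 and another beside that of miR-192 in the RefSeq annotation, and its level was close to that of miR-215-5p and far below that of miR-192-5p. The table does not separate its sources. miR-192-5p and miR-215-5p are shown because they share the seed TGACCTA, which their names do not tell.
miR-192-5p: cTGACCTAtgaattgacagcc
miR-215-5p_R+1: aTGACCTAtgaattgacagaca

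The muscle and heart list held 0.143%, 0.0293% and 0.133%, with replicate 2 the lowest. miR-1-3p, of skeletal muscle and heart, had 859, 99.8 and 646 CPM. miR-206, confined to skeletal muscle, had 261, 61.9 and 310 CPM, and miR-133c-3p had 255, 74.6 and 293 CPM. All 3 were lowest in replicate 2. miR-499-5p, encoded in a myosin gene of heart and slow muscle, had 35.3, 50.1 and 62.2 CPM and did not follow them. miR-208b-3p, of another myosin gene, had 5, 9 and 13 counts.

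The brain list of 24 entries held 0.277%, 0.119% and 0.199%. miR-128b-3p made up 94.6% of it, with 2611, 1113 and 1907 CPM, and miR-128 is expressed in blood cells as well as in neurons. miR-9-5p, of neural progenitors and neurons, had 100.5, 37.6 and 19.96 CPM, miR-132-3p, induced by neuronal activity, had 22.8, 19.9 and 37.9 CPM, and miR-128a-5p averaged 7.22 CPM. The neuron-specific miR-124a-3p was at 0 counts in all 3 libraries, as were the listed 3p arms of miR-129 and miR-488-5p. miR-383 had 1.77, 0.393 and 0 CPM, and miR-129-5p had 0.279, 0 and 0.547 CPM. Apart from entries of miR-128, miR-9 and miR-132, the highest entry of the list was miR-138-5p with a mean of 2.43 CPM, or 18, 21 and 66 counts. Of the 24 entries 14 were detected in all 3 libraries, which is 58.3%, while 3 averaged 10 CPM or more. Over all entries this was 43.3%, a base that includes the predicted candidates, 136 of 897, which the list does not hold. Among rhesus names it was 461 of 580, and among names of other species 288 of 569. The list was thus detected in part, mostly at low levels.

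The remaining lists lay close to 0. In the pancreas list miR-375, of islet and other endocrine cells, had 121, 45.4 and 77.6 CPM, while miR-216a-5p and miR-216b, of acinar cells, had 0 counts in all 3 libraries. In the sensory cell list miR-182, miR-183-5p and miR-96 averaged 5.35, 2.37 and 2.35 CPM. In the embryonic stem cell list miR-372-3p had 5, 932 and 334 counts, or 0.465, 61.0 and 21.5 CPM. miR-371-5p, of the same locus, had 0, 439 and 206 counts, and miR-373 had 0, 106 and 65 counts. The 3 entries had the same order, with replicate 2 the highest and replicate 1 at or near 0. By contrast miR-302d of the other stem cell locus averaged 0.711 CPM. Of the 4 entries of the placental C19MC locus 3 were at 0 throughout, and miR-516a-5p had 7 counts in replicate 3 only. Of the 7 entries of testis and epididymis the highest was miR-510-5p with 23, 18 and 79 counts.

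**Figure D4:**
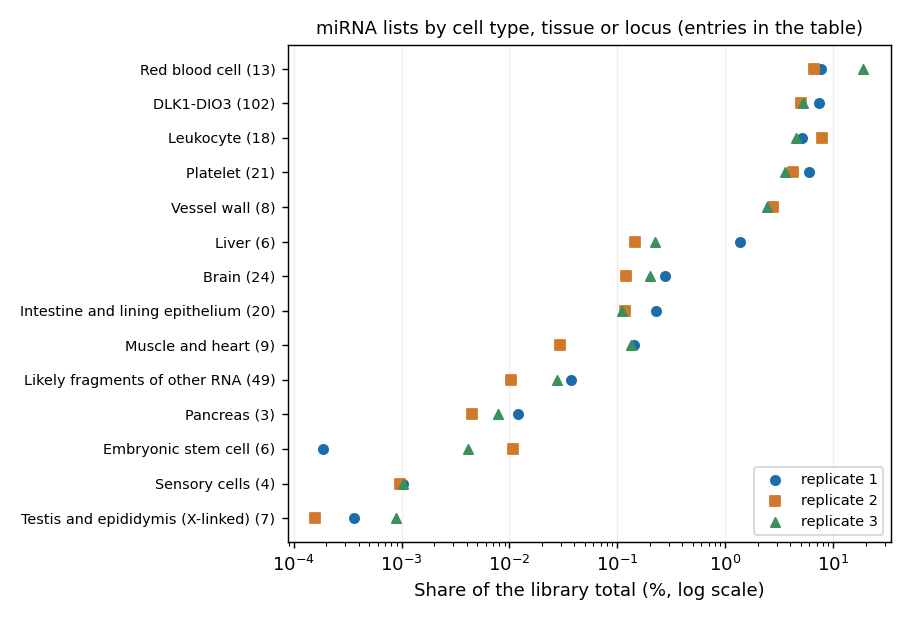
Share of the library total in percent on a log scale for lists of miRNAs by cell type, tissue or locus, with the number of entries in the table, for the 3 libraries. The red blood cell list reached 18.9% in replicate 3, the liver list 1.36% in replicate 1, and the muscle and heart list was lowest in replicate 2 with 0.0293%.

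A single imprinted locus held a share of the same order as the platelet and leukocyte lists. The DLK1-DIO3 region, whose miRNAs are expressed from the maternal chromosome and are abundant in brain, placenta and embryo, was represented by a list of 102 entries. Of these 91 were detected in all 3 libraries, or 89.2%. This compares with 461 of 580 rhesus names, and with 43.3% of all entries, which include the predicted candidates. The listed entries held 7.36%, 5.03% and 5.29% of the total. The list is not complete: miR-654, of the same locus, was left out and had 5185, 2419 and 3831 CPM with its arms summed. miR-409-3p had 11880, 8131 and 8099 CPM, and miR-127-3p had 13735, 6415 and 5704 CPM. miR-381-3p had 5655, 6194 and 6693 CPM and miR-382-5p had 3469, 3375 and 3056 CPM. miR-409-3p and miR-127-3p were thus highest in replicate 1, while miR-381-3p was highest in replicate 3. Of the 62 entries of 10 CPM or more, 48 were highest in replicate 1, against 187 of 437 over all entries. The median SD of log2 CPM of the 62 entries was 0.32, against 0.47 over all entries of that level. The SD fell with the level, and 40 of the 62 averaged 100 CPM or more, against 216 of 437. Over all entries of 100 CPM or more the median SD was 0.39. In the RefSeq annotation of assembly T2T-MMU8v2.0, the part of the locus from miR-379 to miR-656 formed a cluster of 36 neighbouring miRNA genes with 34 different precursor names, of which 32 were measured.

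The spread between the libraries was far above counting error. For the 437 entries of 10 CPM or more the median SD of log2(CPM + 1) was 0.47, where counting alone gives a median of 0.04. The median SD fell with the level, being 0.58 for 221 entries of 10 to 100 CPM, 0.44 for 119 entries of 100 to 1000 CPM and 0.33 for 97 entries of 1000 CPM or more. Of the 437 entries 63 had an SD over 1, and 130 stayed within 1.5-fold between the highest and the lowest library. Across these entries the log2 levels of replicates 1 and 2, 1 and 3, and 2 and 3 had Pearson correlations of 0.94, 0.96 and 0.96, which describe the common order of abundance across entries that are not independent replicates. Of the 437 entries 125, 101 and 111 differed by more than 2-fold between these pairs.

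Of the 216 entries of 100 CPM or more, the most variable was miR-424-5p, of the X-linked miR-424/503 cluster, with 46.5, 1028 and 352 CPM. Its partner arm miR-424-3p came next with 26.6, 347 and 133 CPM. Both arms were low in replicate 1 and high in replicate 2. miR-125a-5p, of many tissues, had 780, 118 and 1181 CPM. miR-139-5p had 777, 82.2 and 450 CPM, miR-10b-5p, from a HOX gene cluster, had 2085, 456 and 2175 CPM, and miR-331-3p had 327, 60.3 and 125 CPM. These 4 were lowest in replicate 2. The other members of the 10 most variable entries were miR-122a-5p, miR-1-3p, miR-206 and miR-143-3p, whose values are given above. Of the 10 entries 8 were lowest in replicate 2, 2 in replicate 1 and none in replicate 3, against 86, 55 and 75 of all 216 entries. These entries were picked for their spread, and for miR-122a-5p replicates 2 and 3 lay close together while replicate 1 stood apart.

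Of the 10 least variable entries of 100 CPM or more, miR-423-3p had an SD of log2 CPM of 0.02. miR-18a-5p, with 235, 237 and 229 CPM, and miR-532-5p, with 1234, 1200 and 1195 CPM, followed with 0.03 each. miR-146b-5p, miR-361-3p and miR-222-3p had SDs of 0.05 to 0.06. A form of miR-500a-3p and miR-502-3p shared 1 sequence and had the same values, 325, 321 and 352 CPM. miR-28-3p had 1475, 1534 and 1375 CPM. miR-23a-3p, the reference of the hemolysis ratio, was also among the 10 least variable, with 9555, 9468 and 8595 CPM, so the difference in that ratio was one of miR-451. The partner arm miR-423-5p had a far larger SD than miR-423-3p, 0.52.

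**Figure D5:**
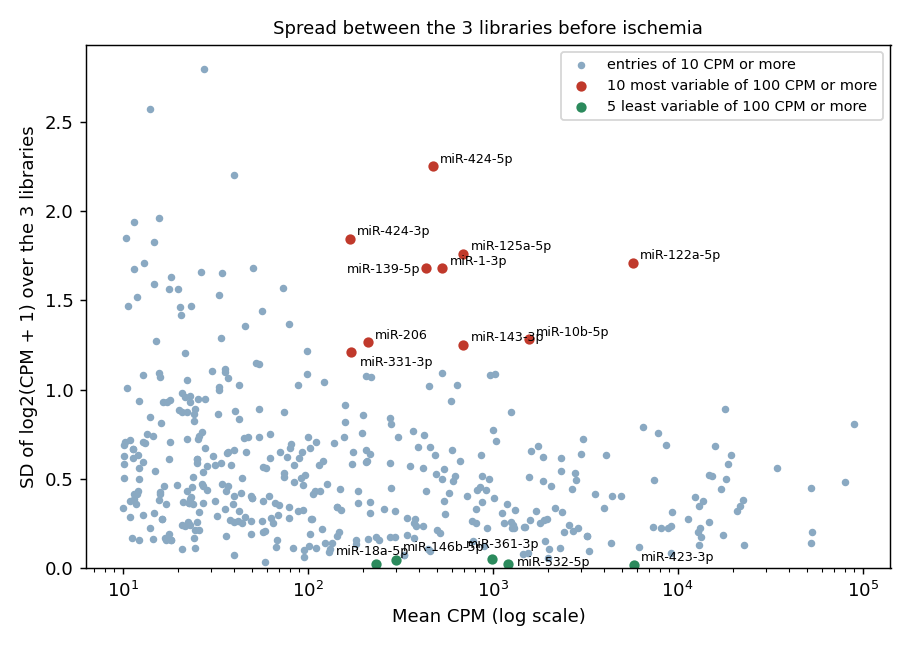
SD of log2(CPM + 1) over the 3 libraries against the mean CPM on a log scale for 437 entries of 10 CPM or more, with the 10 most and the 5 least variable entries of 100 CPM or more named. miR-424-5p had the highest SD of these, 2.25, and miR-423-3p the lowest, 0.02.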

How the data were processed

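Plasma small RNA of adult male rhesus monkeys was sequenced by the authors from TruSeq small RNA libraries on an Illumina HiSeq instrument and analysed with ACGT101-miR, which trimmed adapters, discarded reads outside 18 to 26 nt and those of other RNA classes in Rfam and named entries by miRBase. The genome build and aligner version were not given in the sources used here. The deposited signal values are read counts that the authors scaled by 1 factor per library. Each factor was recovered as the step between low values (86.0%, 86.0% and 84.0% of values were whole within 0.01 counts, and the rest are reads divided between entries). The deposited table has 5 empty lines.

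From these, CPM and shares of the library total were computed with Python 3.11.15, pandas 2.3.3 and NumPy 2.4.6, and the functions were tested on simulated data. Only the 3 libraries before ischemia were used, 1 per monkey by the study's description, so spread holds the difference between animals and that of handling. No test was run. Seed families share bases 2 to 8. log2 ratios and SDs used a pseudocount of 1 CPM and a minimum of 10 CPM. No reference of mature sequences was used, so entries named without an arm took it from the partner arm in the table (12 common letters mark the same arm). Names and neighbouring genes came from RefSeq, where 340 of 361 rhesus precursor names matched. Genes were called neighbours within 10 kb.

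Named entries were the 20 most abundant, the leader of each of the 15 largest families, the 4 leading entries of each of 15 lists, the precursors and entries singled out in the text by level, arm balance or spread, the leading predicted candidates and other-species entries. The libraries were chosen by their label, and the choice of libraries and lists was made with earlier results of these data known. Alternatives left out each library, changed the pseudocount, the minimum, the seed, the scaling or the arm rule, added miRNAs to the red blood cell list, and counted identical sequences once.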

Additional observations from a re-analysis of the deposited data

How the results depend on the processing

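For 22 summary values, 116 alternatives were computed. A mean share was compared with its SD between the libraries, which leaving out 1 of 3 libraries cannot exceed, and a count was compared by a limit of 1.5-fold, so most of these comparisons say little about stability. With the arm taken from the name only, 5p arms held 58.2% of the total. The median log2 arm ratio, 0.31, was 0.13 to 0.39 with 1 library left out, with the lowest value without replicate 2, and 0.65 for arms of at least 100 CPM. The median SD of log2 CPM, 0.47, was 0.37 to 0.41 with 1 library left out, where an SD over 2 libraries replaces one over 3, 0.39 at a minimum of 100 CPM and 0.31 with no minimum. The red blood cell share, 11.1%, rested on replicate 3 (7.22% without it) and was 16.9% with 5 more miRNAs in the list. The liver share, 0.577%, was 0.185% without replicate 1. No paired analysis was possible because a single group was described and no test was run. With 3 animals, no range of normal values can be given, and the table holds 1 form for most rhesus names.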

Other observations

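The first base of the rhesus entries was U for 67.7% ± 1.75 of their counts but for 42.4% of the entries, and A for 17.0% ± 1.36 of the counts, while G made up 1.89% ± 0.402 of the counts and 9.31% of the entries. An Argonaute protein is known to hold a U or an A at this position best. Among the entries of other species C was the first base of 55.6% ± 2.30 of the counts, most of it from hsa-miR-126-5p. The G and C content, weighted by counts, was 45.8%, 45.5% and 48.2% in replicates 1, 2 and 3. Replicate 3, which held the most miR-486-5p, was the highest.

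Levels were also summed over neighbouring miRNA genes. The members differed by 1.04-fold for miR-215 and miR-194, 10.7-fold for miR-192 and miR-194, and far more in some other clusters. The level of miR-194 joins both of its genes, so neither value is a ratio within 1 cluster. miR-191 and miR-425, neighbours in the RefSeq annotation of T2T-MMU8v2.0, summed to 5.68% ± 0.760 of the total, of which miR-191 made up 93.6%. miR-25, miR-93 and miR-106b, from 1 intron cluster, summed to 2.68%, 3.61% and 5.14%, with miR-25 making up 51.3%. miR-451 and miR-144 summed to 1.298%, 1.09% and 3.39%, with miR-451 making up 94.2%. The cluster of miR-379 to miR-656 in the DLK1-DIO3 region held 5.25%, 3.86% and 4.18% of the total, and miR-409 was its leading member with 25.1%. This sum includes miR-654, which the DLK1-DIO3 list leaves out.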
